A study of Homo sapiens with 16 samples.

Results

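A set of 6 transcription factors was followed, IRF4, PRDM1, MAF, CEBPB, TBX21 and EOMES, all known from anaplastic large cell lymphoma (ALCL) or from effector T cells. They were chosen by gene symbol, and every probe set that the array's annotation gives to 1 of these symbols was used. There were 9 such probe sets, 3 for IRF4, 3 for MAF and 1 each for PRDM1, CEBPB and TBX21. EOMES had no probe set in the annotation used and has no value here, so 5 of the 6 factors were measured, among 11963 genes tested.

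The study asked whether drugs that remove DNA methylation and raise histone acetylation give T cells an ALCL-like profile. Its 16 arrays (Affymetrix HG-U133A, which read each transcript with sets of short oligonucleotides) cover 8 established human cell lines, each once untreated and once treated. The ALCL group holds Karpas 299, SU-DHL-1, JB6 and FE-PD, and the T-cell group holds Jurkat, CCRF-CEM, Molt-4 and Molt-3, which come from T-cell lymphoma or leukaemia. The treated arrays of both groups follow 1 µM 5-aza-2'-deoxycytidine (5-aza-dC, an inhibitor of DNA methyltransferases) for 6 days, with 625 nM trichostatin A (TSA, an inhibitor of histone deacetylases) for 24 h before harvest. Both drugs were always given together, so their effects cannot be told apart. No vehicle-treated culture is named for the untreated arrays. A replicate is a cell line, so n = 4 lines in each group, and p-values measure the spread between lines. Molt-3 and Molt-4 are known to have been derived from the same patient, so they are less independent than other pairs of lines.

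IRF4 works with BATF and JUN proteins in activated T cells and, with PRDM1 (Blimp-1), drives the end stage of lymphocyte differentiation, in which PRDM1 represses BCL6 and MYC. CEBPB is a basic leucine zipper factor of inflammation and myeloid cells that the ALK fusion kinase of many ALCL induces. MAF (c-Maf) activates cytokine genes such as IL4 and IL10, while TBX21 (T-bet) and EOMES (eomesodermin) are T-box factors that switch on IFNG and the cytotoxic genes. DNA methylation sits on CpG dinucleotides, and CpG-rich promoters are unmethylated in most normal cells.

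Because 1 of the drugs acts on CpG methylation, the DNA upstream of the factors is shown first. RefSeq (GRCh38.p14) gave 8 start sites for the 6 factors, 2 each for PRDM1 and CEBPB. Each window below is the 250 bases before the start site, written 5′ to 3′ on the gene's strand, with every CpG in capitals. Methylation itself was not measured. The windows shown are those of the factors whose levels the results turn on. They are IRF4 at chr6:391502-391751 (plus strand), PRDM1 at chr6:106086086-106086335 and chr6:106098691-106098940 (both plus strand), CEBPB at its second start, chr20:50190580-50190829 (plus strand), and MAF at chr16:79600738-79600987 (minus strand).
IRF4: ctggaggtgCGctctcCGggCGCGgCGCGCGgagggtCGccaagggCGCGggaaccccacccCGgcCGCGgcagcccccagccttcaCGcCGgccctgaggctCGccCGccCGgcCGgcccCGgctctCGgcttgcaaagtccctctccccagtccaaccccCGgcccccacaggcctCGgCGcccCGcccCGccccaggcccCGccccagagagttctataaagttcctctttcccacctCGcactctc
PRDM1 start 1: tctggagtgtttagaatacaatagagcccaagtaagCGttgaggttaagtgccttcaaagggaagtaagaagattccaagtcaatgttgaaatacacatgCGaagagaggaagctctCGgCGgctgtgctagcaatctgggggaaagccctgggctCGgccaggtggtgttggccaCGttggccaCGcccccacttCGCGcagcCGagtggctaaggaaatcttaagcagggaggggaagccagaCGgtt
PRDM1 start 2: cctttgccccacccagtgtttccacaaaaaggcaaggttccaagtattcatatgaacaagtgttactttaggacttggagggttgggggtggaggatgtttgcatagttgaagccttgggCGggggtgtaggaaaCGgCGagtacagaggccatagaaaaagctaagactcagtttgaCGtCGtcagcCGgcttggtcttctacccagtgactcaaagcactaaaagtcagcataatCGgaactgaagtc
CEBPB start 2: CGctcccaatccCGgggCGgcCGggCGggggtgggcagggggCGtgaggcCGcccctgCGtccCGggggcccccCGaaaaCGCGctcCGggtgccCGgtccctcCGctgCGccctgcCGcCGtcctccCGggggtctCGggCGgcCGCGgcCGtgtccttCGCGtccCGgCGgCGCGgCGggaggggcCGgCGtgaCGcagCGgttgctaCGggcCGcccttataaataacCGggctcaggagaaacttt
MAF: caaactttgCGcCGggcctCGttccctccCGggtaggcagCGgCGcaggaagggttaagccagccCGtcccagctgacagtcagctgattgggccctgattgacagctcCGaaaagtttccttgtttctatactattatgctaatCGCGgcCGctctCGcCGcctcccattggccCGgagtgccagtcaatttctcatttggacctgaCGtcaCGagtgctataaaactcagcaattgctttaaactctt

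The IRF4 window held 28 CpG, an observed over expected ratio of 0.833, and 15.9% of the 35116 RefSeq windows of this length held as many. PRDM1 was the least CpG-rich of the factors, with 11 CpG at its first start (ratio 0.641) and 7 at its second (ratio 0.483), against a median of 11 CpG and a ratio of 0.558 over all windows. CEBPB had the most, 38 at its second start (ratio 1.01, a number of CpG that 3.28% of windows reach) and 25 at its first (ratio 0.701). MAF had 16 CpG (ratio 0.877), TBX21 17 (ratio 0.703) and EOMES 19 (ratio 0.801). The letters TATAAA, searched on both strands, were present in the windows of IRF4, MAF, EOMES and the second start of CEBPB, and in 10.7% of all windows. The letters GAAA followed after 2 bases of any kind by another GAAA, a core bound by interferon regulatory factors, searched on both strands, were in none of the 8 windows and in 3.02% of all. Both motifs were chosen after the expression values were known, and a match is a string of letters in this window, not a shown binding site.

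**Figure D1:**
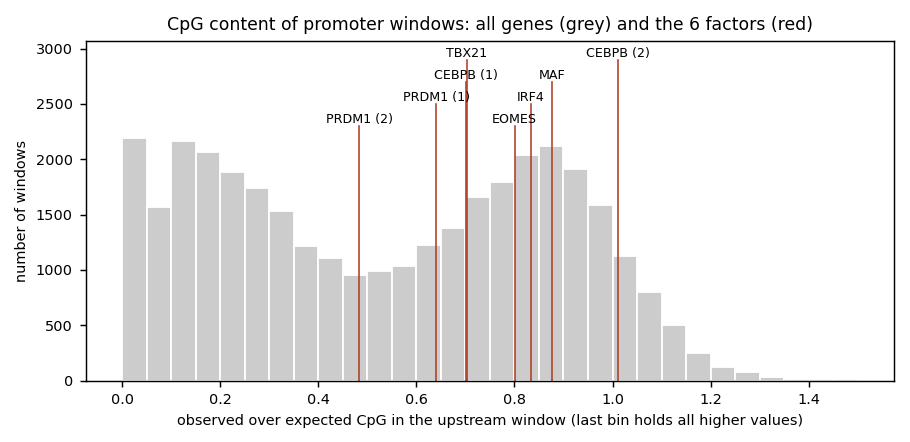
Observed over expected CpG ratio (x axis) in the 250 bases upstream of RefSeq start sites, as a histogram of the number of windows (grey, y axis) with the 8 windows of the 6 factors as red lines, start sites numbered in brackets. The second PRDM1 start lies lowest at 0.483 and the second CEBPB start highest at 1.01.

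All levels below are deposited log2 RMA values (robust multi-array average), so a difference of 1 is a doubling. Levels of different probe sets are not set against each other. A gene is called changed at an adjusted p below 0.05 over all 11963 genes in limma's moderated test, and ± after a difference is its standard error. The SD of an array's values was 1.83 to 1.94 untreated and 1.60 to 1.81 treated. Treated values lay closer together on every array, so this narrowing and the treatment cannot be told apart in any treatment effect below. The arrays of treated lines also differed among themselves. A 28S ribosomal RNA control reached 12.1 to 14.3 in 5 treated lines (Molt-4, Molt-3, SU-DHL-1, JB6 and FE-PD), against 6.81 to 8.15 in the other 3 and 6.60 to 7.62 untreated. Defining genes fitted the labels in most lines, with 6 of 8 T-cell markers lower and 6 of 7 ALCL markers higher in untreated ALCL lines. On treatment of T-cell lines 7 of the 8 T-cell markers fell and 3 of the 7 ALCL markers rose, against 41.9% of all genes called. In treated ALCL lines 3 of the 7 ALCL markers fell and 1 rose, against 21.4%. Among them TNFRSF8 (CD30) read 7.48 to 9.56 in treated ALCL lines, and 7.34 to 8.26 in untreated T-cell lines. FE-PD differed from the other ALCL lines in ALK, at 6.39 untreated against 10.0 to 11.1.

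Of the 5 factors measured, IRF4 separated the cell types most. Its probe set 204562_at read 12.14 in FE-PD, 11.31 in JB6, 10.80 in SU-DHL-1 and 11.59 in Karpas 299 untreated. It read 6.55 in CCRF-CEM, 6.64 in Jurkat, 6.44 in Molt-3 and 6.77 in Molt-4. Every ALCL line lay above every T-cell line, by a wide gap. The share of all genes that separate the lines in this way is not given here, for IRF4 or for the factors below. The means were 11.46 ± 0.56 and 6.60 ± 0.14 (SD, n = 4 lines each), a difference of 4.86 ± 0.26 or 29.0-fold (limma, adjusted p = 3.51e-05). All 4 untreated T-cell values lie within 3.59 to 6.98, the range of 27 control probe sets for Bacillus subtilis genes pooled over all 16 arrays. The highest control on the same array was 6.53 in CCRF-CEM, 6.56 in Jurkat, 6.60 in Molt-3 and 6.54 in Molt-4. Only Molt-3 lay below its own, and the others lay little above theirs. The fold is therefore that of the measured values, and the T-cell level is not shown to be clearly above background. Of the treated T-cell values 1 of 4, Jurkat, lies within that range.

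After treatment IRF4 read 7.35 in CCRF-CEM, 6.65 in Jurkat, 7.23 in Molt-3 and 7.35 in Molt-4. On this probe set, 204562_at, Jurkat stayed where it was, and the other 3 T-cell lines were 0.58 to 0.80 higher. In RNA of whole cultures, a change in all cells and a larger one in some of them cannot be told apart. The mean change of 0.54 ± 0.27 did not pass the test (limma, adjusted p = 0.122). With the T-cell lines fitted alone the same change passed (limma, adjusted p = 0.0337), and it did so without FE-PD in the common fit (limma, adjusted p = 0.0247). With the arrays scaled on hybridisation spikes instead, a control added in fixed amount, the change was -0.14.

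Treated ALCL lines read 10.50 in FE-PD, 11.10 in JB6, 11.04 in SU-DHL-1 and 11.42 in Karpas 299 for IRF4. The change was -1.64 in FE-PD and between -0.21 and 0.24 in the other 3 lines. The mean was -0.44 ± 0.27 (limma, adjusted p = 0.250), and -0.043 without FE-PD. The treated groups did not overlap either. Treated ALCL lines stood 3.87 ± 0.24, or 14.6-fold, above treated T-cell lines (limma, adjusted p = 9.28e-05). Treated T-cell lines stayed 4.31 below untreated ALCL lines, a difference of -4.31 ± 0.29 or 19.9-fold (limma, adjusted p = 6.74e-05).

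The other 2 IRF4 probe sets gave smaller differences. Probe set 216986_s_at read 9.48 in untreated FE-PD, 9.05 in JB6, 7.52 in SU-DHL-1 and 8.10 in Karpas 299, and 6.61 in CCRF-CEM, 6.13 in Jurkat, 6.46 in Molt-3 and 6.32 in Molt-4. The groups did not overlap there, with a difference of 2.15 (limma, adjusted p = 0.0172). After treatment this probe set averaged 7.66 in ALCL and 6.73 in T-cell lines, and that difference was not called. In ALCL lines this probe set fell by 0.87 on treatment (limma, adjusted p = 0.0464), with changes of -1.88 in FE-PD, -1.21 in JB6, -0.32 in SU-DHL-1 and -0.081 in Karpas 299. Without FE-PD it was -0.54 (adjusted p = 0.119), and the call was also lost without JB6 (0.177) or SU-DHL-1 (0.0561). In T-cell lines the same probe set changed by -0.11 in CCRF-CEM, 0.43 in Jurkat, 0.38 in Molt-3 and 0.68 in Molt-4. The line that did not rise was thus CCRF-CEM here and Jurkat on 204562_at. Probe set 216987_at lay between 3.79 and 4.04 on all arrays and did not separate the cell types (0.039, limma, adjusted p = 0.797). Across the 16 arrays 204562_at correlated with 216986_s_at at r = 0.877 and with 216987_at at r = 0.461. These r values describe arrays that share 8 lines and carry no test.

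PRDM1 differed less between untreated lines and not detectably between treated ones. Its only probe set read 8.003 in FE-PD, 8.43 in JB6, 7.27 in SU-DHL-1 and 7.98 in Karpas 299 untreated. It read 6.88 in CCRF-CEM, 6.42 in Jurkat, 6.89 in Molt-3 and 7.01 in Molt-4. SU-DHL-1 was the lowest ALCL line, and the groups did not overlap. Of the T-cell values 3 of 4 lay within the pooled range of the bacterial controls. Only Jurkat lay below the highest control of its own array (6.56). The means were 7.92 ± 0.48 and 6.80 ± 0.26 (SD, n = 4 lines each), a difference of 1.12 ± 0.25 or 2.18-fold (limma, adjusted p = 0.0296). The call was lost when any line other than SU-DHL-1 was left out, with adjusted p from 0.0554 without CCRF-CEM to 0.0782 without Molt-3. Without SU-DHL-1 it was 0.0065.

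Treated T-cell lines read 7.20 in CCRF-CEM, 7.01 in Jurkat, 7.54 in Molt-3 and 7.81 in Molt-4 for PRDM1. All 4 were higher than untreated, and the mean rise was 0.59 ± 0.18 or 1.50-fold (limma, adjusted p = 0.0258). The call was lost without Jurkat (adjusted p = 0.0655), Molt-3 (0.0939) or Molt-4 (0.108). It was lost when array medians were made equal (0.47, adjusted p = 0.0645) and with spike scaling, where the change was -0.094. It was kept after quantile normalization, which makes the spread of all arrays equal (0.55, adjusted p = 0.0413).

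In ALCL lines PRDM1 read 7.50 in FE-PD, 7.39 in JB6, 7.45 in SU-DHL-1 and 7.63 in Karpas 299 after treatment. It was lower than untreated in 3 of 4 lines, by most in JB6 (-1.04), and higher in SU-DHL-1 (0.18). The mean change was -0.43 ± 0.18 (limma, adjusted p = 0.115). The ALCL change minus the T-cell change was -1.02 ± 0.25, the difference of the 2 treatment effects (limma, adjusted p = 0.0914), and it passed without SU-DHL-1 (-1.22, adjusted p = 0.0354). So did the ALCL change itself (-0.63, adjusted p = 0.0443). Treated groups overlapped, at 7.39 to 7.63 in ALCL and 7.01 to 7.81 in T-cell lines, with a difference of 0.11 ± 0.19 (limma, adjusted p = 0.863). Treated T-cell lines lay -0.53 ± 0.27 from untreated ALCL lines (limma, adjusted p = 0.184). Plasma cells carry much PRDM1, so B-cell and plasma-cell markers were read as well. None of the 10 measured differed between untreated cell types, and 3 rose in treated T-cell lines, MS4A1 by 1.06, SDC1 (syndecan-1) by 0.67 and BLK by 0.50, where 41.9% of all genes were called. CD79A, at -0.46, and POU2AF1, at -0.42, went the other way without passing (adjusted p = 0.0741 and 0.0676). The mean level of the 10 was 6.14 to 6.42 in untreated and 6.32 to 6.74 in treated T-cell lines, and their part in the PRDM1 result was not tested.

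CEBPB varied more between lines of a type than any other factor. It read 9.85 in FE-PD, 11.12 in JB6, 12.33 in SU-DHL-1 and 11.90 in Karpas 299 untreated. It read 10.65 in CCRF-CEM, 11.71 in Jurkat, 7.62 in Molt-3 and 7.29 in Molt-4. CCRF-CEM and Jurkat lay within the ALCL range, and Molt-3 and Molt-4 lay far below it. The group means were 11.30 ± 1.09 and 9.32 ± 2.20 (SD, n = 4 lines each), and the difference of 1.98 ± 1.06 did not pass (limma, adjusted p = 0.282).

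Treatment moved CEBPB in opposite directions within each cell type. It was 1.84 higher in treated FE-PD, 0.40 higher in Karpas 299, 0.029 higher in SU-DHL-1 and -0.30 from untreated in JB6. It changed by -0.76 in CCRF-CEM and -0.98 in Jurkat, the lines high at the start, and by 0.62 in Molt-3 and 0.26 in Molt-4. Fits split by the 28S control gave a T-cell mean of -0.87 in CCRF-CEM and Jurkat. In Molt-3 and Molt-4 they gave 0.44 (limma, adjusted p = 0.462). The first of these fits held Karpas 299 as its only ALCL line, so no p is given for it. The means were 0.49 ± 0.35 in ALCL lines (limma, adjusted p = 0.320) and -0.21 ± 0.35 in T-cell lines (adjusted p = 0.624). Without FE-PD the ALCL mean was 0.043. The split in T-cell lines runs along the 28S control, which was high in treated Molt-3 and Molt-4 and not in CCRF-CEM and Jurkat, and its part in the result was not tested.

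Treated CEBPB read 11.69 in FE-PD, 10.82 in JB6, 12.36 in SU-DHL-1 and 12.30 in Karpas 299. It read 9.89 in CCRF-CEM, 10.73 in Jurkat, 8.24 in Molt-3 and 7.55 in Molt-4. Here every ALCL line lay above every T-cell line, JB6 and Jurkat by little. The difference of 2.69 ± 0.67, or 6.45-fold, missed the threshold (limma, adjusted p = 0.0706). It passed after quantile normalization (2.76, adjusted p = 0.0471), without the lowest 40% of genes (2.69, adjusted p = 0.0432) and without Jurkat (3.23, adjusted p = 0.0342). Spike scaling also called it (3.11), in a fit whose prior degrees of freedom were infinite. Treated T-cell lines lay -2.20 ± 0.76 from untreated ALCL lines (limma, adjusted p = 0.0747), which passed without Jurkat (-2.74, adjusted p = 0.0354) or FE-PD (-2.68, adjusted p = 0.0434). CEBPB is also a factor of myeloid cells. Of 7 myeloid markers 1, CSF1R, was called, 2.39 higher in untreated ALCL lines, and none was called on treatment.

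MAF was low and nearly flat. Its probe set 206363_at read 5.10 in FE-PD, 5.10 in JB6, 4.75 in SU-DHL-1 and 4.99 in Karpas 299 untreated, and 4.70 in CCRF-CEM, 4.88 in Jurkat, 4.84 in Molt-3 and 4.85 in Molt-4. All values of the 3 MAF probe sets lie within the range of the Bacillus subtilis controls. The cell types overlapped, with a difference of 0.17 ± 0.11 (limma, adjusted p = 0.378). After treatment it read 5.34 in FE-PD, 5.60 in JB6, 5.07 in SU-DHL-1 and 5.06 in Karpas 299, and 4.95 in CCRF-CEM, 5.33 in Jurkat, 4.99 in Molt-3 and 5.10 in Molt-4.

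The MAF value was higher after treatment in 8 of 8 lines, by 0.070 in Karpas 299 to 0.50 in JB6. The change was 0.27 ± 0.12 in T-cell lines (limma, adjusted p = 0.0828) and 0.28 ± 0.12 in ALCL lines (adjusted p = 0.113). The mean over both types, a comparison added after these changes were seen, was 0.28 ± 0.083 (limma, adjusted p = 0.0184), against a median of 0.12 over all genes. That call was lost after quantile normalization (0.13, adjusted p = 0.176) and median centring (0.19, adjusted p = 0.0728), and spike scaling turned it to -0.36. Probe set 209348_s_at was also higher in 8 of 8 lines (0.23, adjusted p = 0.0539), while 209347_s_at was higher in 2 of 8 (-0.045, adjusted p = 0.636). Treated cell types differed by 0.18 (limma, adjusted p = 0.709), and treated T-cell lines stood 0.11 from untreated ALCL lines (adjusted p = 0.625).

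TBX21 did not separate the cell types. It read 8.29 in FE-PD, 6.74 in JB6, 7.16 in SU-DHL-1 and 6.83 in Karpas 299 untreated. It read 7.02 in CCRF-CEM, 7.56 in Jurkat, 6.91 in Molt-3 and 6.90 in Molt-4. In each group 2 of 4 untreated values lie within the pooled range of the bacterial controls. None lies below the highest control of its own array (6.62 in JB6, 6.68 in Karpas 299, 6.60 in Molt-3 and 6.54 in Molt-4). FE-PD stood highest and JB6 lowest, with the T-cell lines between them. The difference was 0.15 ± 0.34 (limma, adjusted p = 0.806), and -0.19 without FE-PD.

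Treated TBX21 read 7.93 in FE-PD, 7.58 in JB6, 7.41 in SU-DHL-1 and 6.86 in Karpas 299, and 7.19 in CCRF-CEM, 7.32 in Jurkat, 7.39 in Molt-3 and 7.72 in Molt-4. It was lower than untreated in FE-PD (-0.36) and Jurkat (-0.24), the highest untreated line of each type, and higher in the other 6, by up to 0.85 in JB6. The mean changes were 0.31 ± 0.21 in T-cell lines (limma, adjusted p = 0.253) and 0.19 ± 0.21 in ALCL lines (adjusted p = 0.522). The treated groups overlapped, with a difference of 0.041 (limma, adjusted p = 0.962), and treated T-cell lines lay 0.15 from untreated ALCL lines (adjusted p = 0.762). NK cells also carry TBX21. Of 6 NK-cell markers none differed between untreated types, and 4 rose in treated T-cell lines, where 41.9% of all genes were called, among them NCR3 by 0.81 and NCAM1 by 0.53. Their mean level was 6.24 to 6.76 in untreated and 6.71 to 7.11 in treated T-cell lines.

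**Figure D2:**
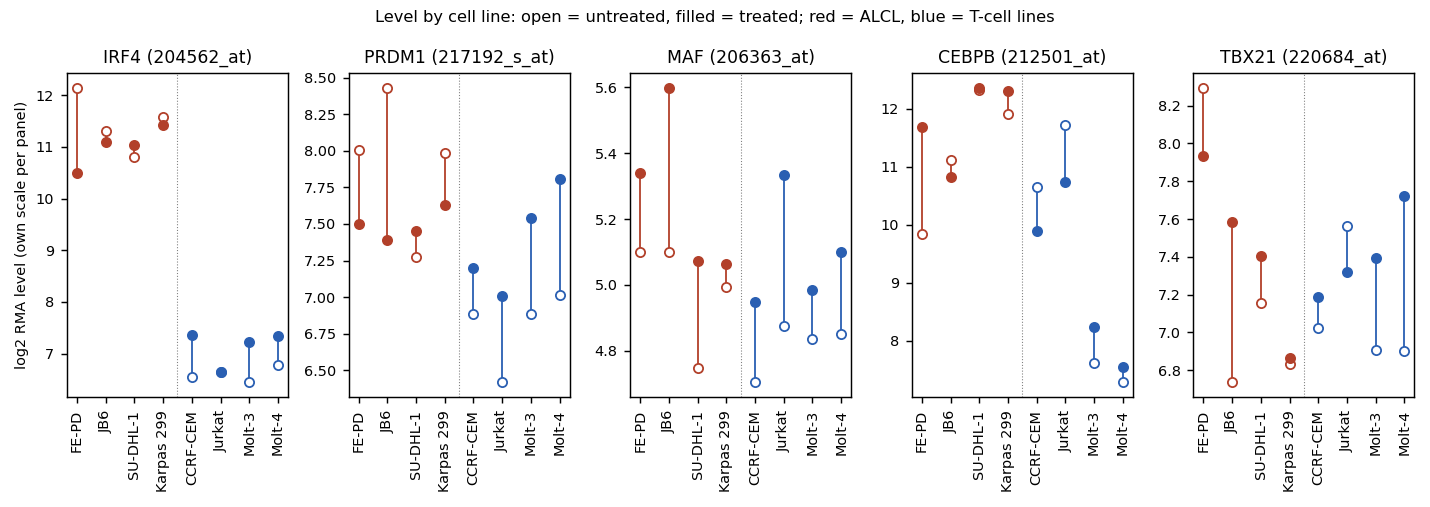
Log2 RMA level (y axis, own scale in each panel) of the chosen probe set of 5 factors in each cell line (x axis), untreated (open) and treated (filled), with ALCL lines in red and T-cell lines in blue. IRF4 leaves a gap between the cell types in both conditions, PRDM1 does so untreated only and CEBPB, narrowly, treated only. Treated MAF is higher in 8 of 8 lines. The share of all genes with such a gap, or with a rise in 8 of 8 lines, is not given.

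**Figure D3:**
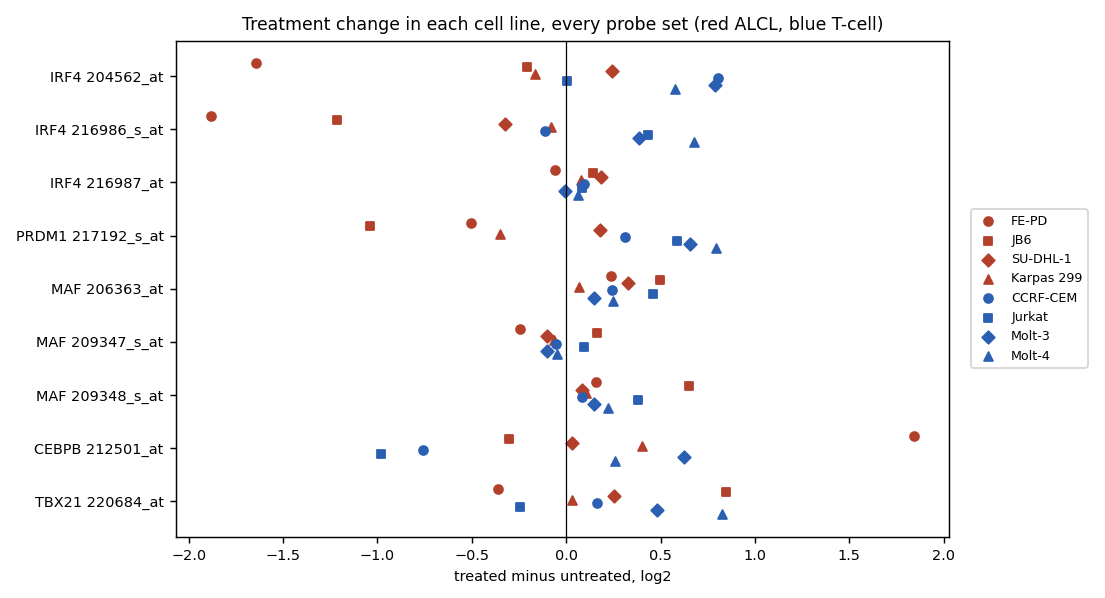
Treated minus untreated log2 level (x axis) of each of the 9 probe sets (y axis) in each line, with ALCL lines in red and T-cell lines in blue. FE-PD has the largest change of IRF4 204562_at (-1.64) and of CEBPB (1.84), in opposite directions.

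By comparison, the counts were these. Between untreated cell types 2 of 5 factors were called, IRF4 and PRDM1, both higher in ALCL, where 8.76% of all genes were called. In T-cell lines treatment raised 1 of 5, PRDM1, a smaller share than the 41.9% of all genes called. In ALCL lines 0 of 5 were called by limma, against 21.4% of genes, and 2 of 5 (PRDM1 and MAF) had an unadjusted p below 0.05. For the difference of the treatment effects 0 of 5 were called by limma, against 1.68% of genes, and 2 of 5 (IRF4 and PRDM1) had an unadjusted p below 0.05. Between treated cell types 1 of 5 was called, IRF4, against 2.88% of genes. Between treated T-cell and untreated ALCL lines 1 of 5 was called, IRF4 again, against 17.9% of genes. Over the mean of all 8 lines 1 of 5 was called, MAF, against 53.6% of genes. The median change of the 5 was 0.31 in T-cell lines and 0.19 in ALCL lines, where that of all genes was 0.14 and 0.089. Several of these comparisons share arrays, so their counts are not independent.

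**Figure D4:**
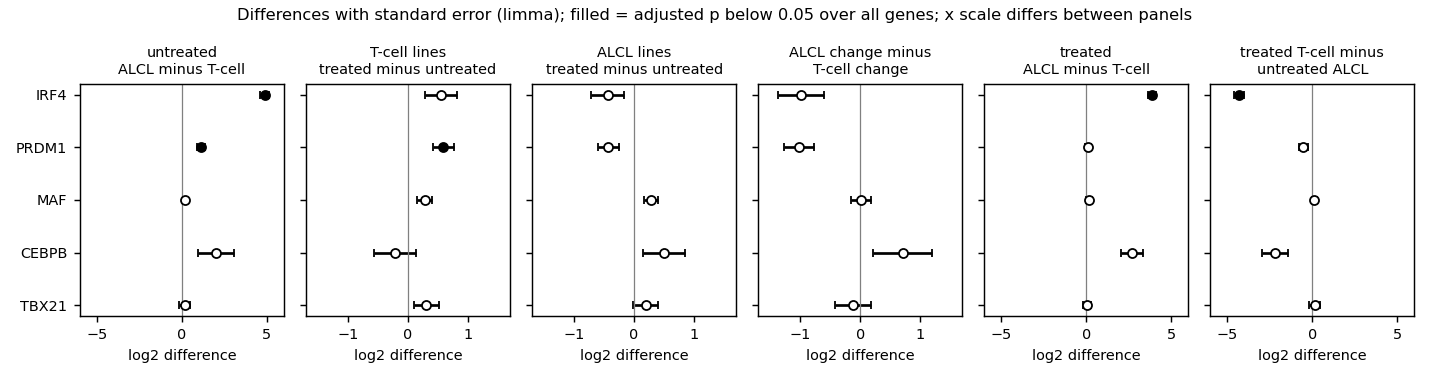
Log2 difference (x axis, scale differs between panels) with its standard error from limma for 5 factors (y axis) in 6 comparisons, with filled points where the adjusted p over all genes is below 0.05. IRF4 is filled in the 3 comparisons of ALCL with T-cell lines, and PRDM1 between untreated types and for treatment of T-cell lines.

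Lists of relatives, partners and targets place these values among other genes of the same pathways. Between untreated types 8.76% of all genes were called, and on treatment 41.9% in T-cell and 21.4% in ALCL lines, and each list's count is to be read against these shares. Group means of some called list genes lay within the pooled range of the bacterial controls, among them TBX3, TBR1, IL21, CXCL8 and S100A8. Spike scaling lowers every gene's treatment change by the same amount, a shift of -0.68 in T-cell and -0.60 in ALCL lines, so by construction a rise below that size turns negative under it. Of the 34 list genes called in T-cell lines 25 kept the call with quantile normalization, and 14 kept it whichever line was left out. These 14 were BCL6, CEBPA, CEBPG, FOXO1, ID2, IKZF1, IRF1, IRF7, LEF1, MYC, RUNX3, STAT4, STAT6 and XBP1. In ALCL lines 8 of 23 kept it whichever line was left out, BATF3, CCL5, CEBPG, IKZF1, IL2RB, S100A9, STAT4 and STAT6. Between untreated types 13 of 21 did, BATF, BATF3, BCL6, BHLHE40, CEBPD, GATA3, GZMB, HLX, IL2RB, MGA, NFATC1, PRF1 and SERPINA1. In the interferon regulatory factor family 7 other members were measured. Of these 2 were higher in untreated ALCL lines, IRF9, the DNA-binding part of the interferon-activated complex ISGF3, by 1.56 ± 0.30 (limma, adjusted p = 0.0203) and IRF2 by 0.65 (adjusted p = 0.0216). In treated T-cell lines IRF7, the factor of type I interferon induction, rose by 2.097 ± 0.36 (limma, adjusted p = 0.00193), while IRF1 fell by 1.14 and IRF2 by 1.17. In treated ALCL lines IRF7 rose by 1.36 (0.77 without FE-PD) and IRF8 by 1.25, and IRF5 fell by 0.56 (-0.34 without Karpas 299, adjusted p = 0.148). The change of IRF1 differed between the types, by 1.32 (limma, adjusted p = 0.00341). The family's median difference between untreated types was 0.89, against 0.037 over all genes.

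Among 14 partners and opponents of IRF4 and PRDM1, 4 were higher and 1 lower in untreated ALCL lines, against 8.76% of all genes called. BATF3 and BATF, which bind DNA with IRF4, were higher by 3.50 (limma, adjusted p = 0.00559) and 1.36 (adjusted p = 0.00646). BCL6, which PRDM1 represses and which represses PRDM1, was higher by 2.84 (adjusted p = 0.000534). BACH2, a repressor of PRDM1, was lower, at -2.25 (adjusted p = 0.0338). It read 7.90 in CCRF-CEM, 7.78 in Jurkat, 5.89 in Molt-3 and 5.78 in Molt-4, and 4.23 to 4.80 in ALCL lines. Its ALCL, Molt-3 and Molt-4 values lie within the pooled range of the bacterial controls. BACH2 was not among the genes that kept the call whichever line was left out. On treatment of ALCL lines 1 rose and 5 fell, against 21.4% of all genes. BATF3 fell by 1.59 (adjusted p = 0.000974), BATF by 1.19, IKZF1 by 1.52 and MYC, which PRDM1 represses, by 1.69. In Karpas 299 BATF3 changed by -1.18, but BATF by -0.097, IKZF1 by -0.18 and MYC by 0.035 only. Without JB6 the calls of BATF (limma, adjusted p = 0.0627) and MYC (0.0675) were lost, and that of BATF also without SU-DHL-1 (0.0591). In T-cell lines 3 rose and 3 fell, with MYC falling by 3.92, IKZF1 by 2.02 and XBP1, a factor of secretory cells, by 1.25, while BCL6 rose by 1.23. That count, 6 of 14, is near the 41.9% of all genes called there. The list's median was 0.12 between untreated types and 0.13 for treatment of T-cell lines, near those of all genes (0.037 and 0.14).

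Of 15 measured targets of T-bet and eomesodermin 5 were higher and none lower in untreated ALCL lines, against 8.76% of all genes called, and TBX21 itself was not called. The cytotoxic genes GZMB (granzyme B) and PRF1 (perforin) were higher by 6.52 (limma, adjusted p = 0.000111) and 6.12 (adjusted p = 3.04e-05), and the IL-2 and IL-15 receptor chain IL2RB by 4.50. GZMB and PRF1 were also among the ALCL markers. In treated T-cell lines 4 of 15 rose, IL2RB by 0.88 and PRF1 by 0.72 among them, a smaller share than the 41.9% of all genes called. In treated ALCL lines CCL5 rose by 0.85 and IL2RB fell by 1.36. GNLY rose by 0.77, with 1.72 in Karpas 299, 0.63 in FE-PD, 0.55 in JB6 and 0.18 in SU-DHL-1. Without Karpas 299 the GNLY change was 0.45 (adjusted p = 0.146), and the call was lost after quantile normalization (0.0747) and median centring (0.0730). The change of IL2RB differed between the types, at -2.25 ± 0.35 (limma, adjusted p = 0.0127). The list's median was 0.60 between untreated types, against 0.037 over all genes.

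In the CEBP family, of 5 other members, CEBPD was higher in untreated ALCL lines by 2.71 ± 0.41 (limma, adjusted p = 0.00678) and in treated ones by 2.80 ± 0.14 (adjusted p = 2.95e-05). CEBPG, a partner without an activation domain, fell by 1.45 in T-cell and 1.58 in ALCL lines, and CEBPA rose by 0.81 and 0.65. Of 10 genes linked to CEBPB, SERPINA1 (alpha-1 antitrypsin) was higher in untreated ALCL lines by 6.26 (adjusted p = 3.51e-05) and TRIB1 by 1.46. In treated ALCL lines 4 of the 10 rose, against 21.4% of all genes called, S100A9 by 2.13 (limma, adjusted p = 0.00216), S100A8 by 1.27, CXCL8 by 1.25 and TRIB1 by 1.01. CEBPB itself was not called there (0.49, limma, adjusted p = 0.320). In FE-PD and JB6 CEBPB changed by 1.84 and -0.30, S100A9 by 0.65 and 3.12, CXCL8 by 0.37 and 1.68 and TRIB1 by 1.66 and -0.099. In SU-DHL-1 and Karpas 299 CEBPB changed by 0.029 and 0.40, S100A9 by 2.88 and 1.85, CXCL8 by 0.66 and 2.30 and TRIB1 by 0.92 and 1.57. The call of TRIB1 was lost without FE-PD (limma, adjusted p = 0.0872), SU-DHL-1 (0.0769) or Karpas 299 (0.0954), and that of CXCL8 without JB6 (0.0630). A part of CEBPB in these rises was not tested. S100A8 changed by 3.005 in Karpas 299 and by 0.42 to 0.88 in the other ALCL lines, and without Karpas 299 its rise was 0.70 (adjusted p = 0.0165). S100A8 and S100A9 encode the subunits of calprotectin. The median change of the 10 in ALCL lines was 0.69, against 0.089 over all genes. In T-cell lines 1 of the 10 rose, DDIT3, by 0.82, and the ALCL change of S100A9 did not differ from the T-cell change by the test (1.76 ± 0.47, adjusted p = 0.119).

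No member of the MAF family (MAFF, MAFG and NRL measured) was called by limma in any of the comparisons. Of 9 MAF-linked genes none was called between untreated types or on treatment of ALCL lines. In treated T-cell lines IL4 fell by 1.09 (limma, adjusted p = 0.0283), with -2.07 in Molt-3 and -2.15 in Molt-4, the lines of the same patient, against -0.29 in CCRF-CEM and 0.14 in Jurkat. Without Molt-3 (adjusted p = 0.139) or Molt-4 (0.144) the call was lost. IL21 rose by 0.56 (adjusted p = 0.045), a call lost without Jurkat, Molt-3, Molt-4 or Karpas 299. IL10 stood 2.30 higher in untreated ALCL lines without passing (adjusted p = 0.0885). Of 9 PRDM relatives none differed between untreated types. In T-cell lines 3 rose, PRDM14, PRDM2 and PRDM11, by 0.48, 0.59 and 0.42, and 1 fell, PRDM10, by 0.45. Out of 9, that share is near the 41.9% of all genes called there. The call of PRDM11 was lost with quantile normalization (limma, adjusted p = 0.101) and median centring (0.111). That of PRDM2 was lost with median centring (0.102). In ALCL lines PRDM4 fell by 0.53. Of 11 T-box relatives MGA, a repressor that pairs with MAX, was lower in untreated ALCL lines (-2.04, adjusted p = 0.00242), and in treated T-cell lines 4 rose, TBX5, TBX19, TBX3 and TBR1, while MGA fell by 0.63. That count, 5 of 11, is near the 41.9% of all genes called there. The calls of TBX3 and TBR1 were lost with quantile normalization and with median centring, and that of TBX19 with quantile normalization.

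Of 14 other factors of effector and helper T cells 4 were higher and 2 lower in untreated ALCL lines, against 8.76% of all genes called. BHLHE40 was higher by 4.38 (limma, adjusted p = 0.00213) and HLX, also counted as a T-bet target, by 2.51. GATA3, the factor of type 2 helper cells, was lower (-3.01, adjusted p = 0.00408). In treated T-cell lines 5 rose and 2 fell, a share near the 41.9% of all genes called. ID2, an inhibitor of E proteins, rose by 4.11 (adjusted p = 0.00134), and LEF1, a factor of naive T cells, fell by 2.72. Single ALCL lines moved as far. ID2 changed by 4.54 in FE-PD, -0.15 in JB6, -0.018 in SU-DHL-1 and 0.032 in Karpas 299. LEF1 changed by -0.90 in FE-PD, 0.069 in JB6, -3.08 in SU-DHL-1 and -0.36 in Karpas 299. STAT6 fell by 1.44 in T-cell and 1.50 in ALCL lines. STAT4, the signal transducer of IL-12, rose by 0.98 in T-cell and 1.09 in ALCL lines. The list's median difference between untreated types was 0.66.

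**Figure D5:**
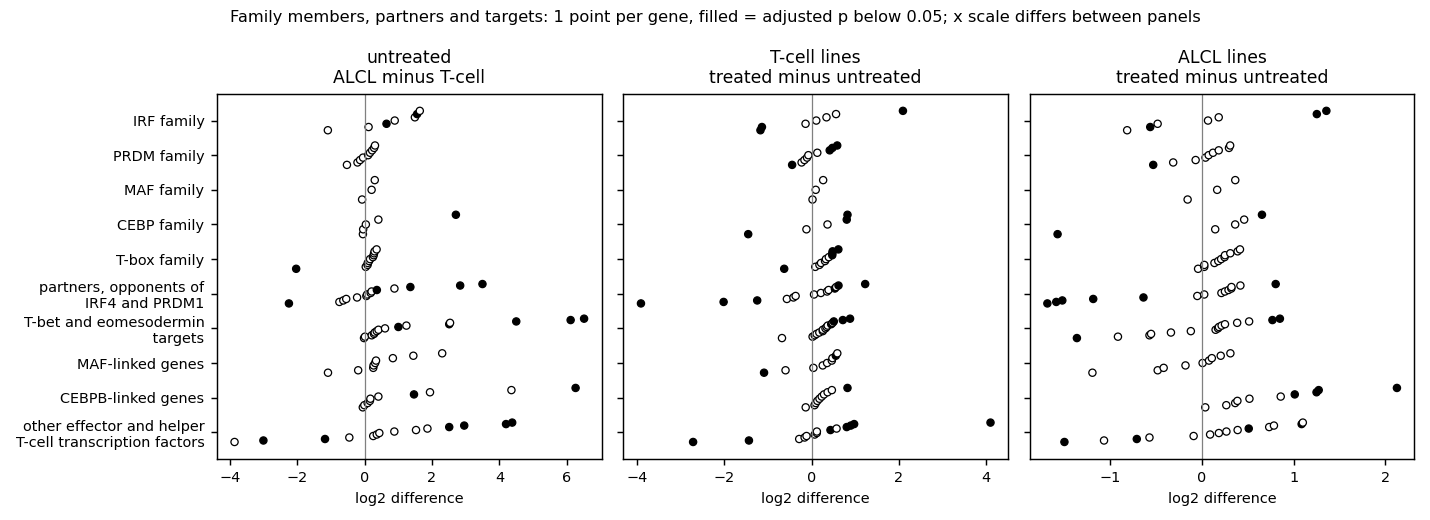
Log2 difference (x axis, scale differs between panels) of each measured gene, 1 point per gene, in 10 lists of relatives, partners and targets (y axis) for 3 comparisons, filled where limma's adjusted p over all genes is below 0.05. GZMB (6.52), SERPINA1 (6.26) and PRF1 (6.12) lie farthest to the right between untreated types.

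The genes whose profiles over the 16 arrays were most like each factor were found by Pearson correlation, as a description. The arrays share 8 lines and 2 cell types, and no p is given. For IRF4 they were AIM2, a sensor of cytosolic DNA (r = 0.982), JUNB, an AP-1 subunit (r = 0.981), and PRF1 (r = 0.977). JUNB averaged 11.39 and 11.54 in untreated and treated ALCL lines, against 7.89 and 8.40 in T-cell lines. For PRDM1 they were CDC14B (r = 0.924), TSHZ2 (r = 0.885) and ABCA3 (r = 0.880). CDC14B, a phosphatase, followed PRDM1 at r = 0.947 over the 8 untreated arrays and r = 0.928 over the 8 treatment changes. For CEBPB they were PJA1 (r = 0.879), ALAS1 (r = 0.858) and ANTKMT (r = 0.849), of which ALAS1, the first enzyme of heme synthesis, followed the treatment changes at r = 0.269 only. For MAF they were NXPH4 (r = 0.932), SLC9A3 (r = 0.927) and GPC1 (r = 0.924), and for TBX21 PRDM13 (r = 0.883), DGKD (r = 0.879) and MOK (r = 0.850).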

How the data were processed

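Total RNA of 8 cell lines, untreated and treated, was hybridised to HG-U133A arrays, per the labels. The authors deposited log2 values; the submitters' processing notes name RMA and R 2.10.1. Probe set definitions and filters were not stated, and detection calls were not used. Of 22283 probe sets, 19065 had 1 gene symbol in the platform's annotation, and for each of 11963 genes the probe set with the highest mean was used.

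Groups came from the labels. R 4.3.3 with limma 3.58.1 (lmFit, eBayes) gave two-sided tests, adjusted over all genes after Benjamini and Hochberg, and the scripts were tested on simulated data. Treatment effects came from 1 fit of 16 arrays, blocked by cell line (6 residual degrees of freedom), and comparisons of cell types from 8 arrays each. A line's untreated and treated arrays deviated together from their group means (r from 0.330 to 0.643 in the 8 lines), and the labels name the same line, so they were taken as paired.

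The members and gene lists were chosen with earlier results of these data known, so their counts are not independent evidence. Named genes are the 6 factors with every probe set, up to 4 members of each list with the smallest adjusted p per comparison, and the 3 genes with the highest Pearson r to each factor. Alternatives covered the block, probe sets, scaling, a filter on low values and leaving out lines. The checks of list genes under other scalings and without single lines, those of the second IRF4 probe set without single lines and the mean effect over 8 lines were added after seeing the data. Promoter windows came from RefSeq (GRCh38.p14). The precision is limited by 4 lines per group.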

Additional observations from a re-analysis of the deposited data

Results flagged for a closer look

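In treated ALCL lines the MAF probe set 209348_s_at read 4.30 in JB6, which stood apart from the other 3 lines of the group. The treatment change of the same probe set, 0.65 in JB6, stood apart from those of the other ALCL lines too. Both rest on the same array. Of 54 groups of 4 values tested in this way, chance alone would set a sample apart in about 5%.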

How the results depend on the processing

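Of 636 alternative values of single factors, 546 kept their direction and their side of the threshold, 23 lost the call, 16 gained it and 51 changed sign. The 3 differences in IRF4 between ALCL and T-cell lines kept direction and call under every alternative run, probe sets 216986_s_at and 216987_at aside. Scaling on hybridisation spikes shifted the all-gene median for treatment of T-cell lines from 0.14 to -0.54, and in ALCL lines from 0.089 to -0.52. With it 0 factors were called for treatment of T-cell lines, 2 between treated types and 3 between treated T-cell and untreated ALCL lines. It gave, for treatment of T-cell lines, -0.14 for IRF4, -0.094 for PRDM1, -0.41 for MAF and -0.38 for TBX21. In ALCL lines it gave -0.32 for MAF, -0.11 for CEBPB and -0.41 for TBX21, and for treated T-cell against untreated ALCL lines -0.92 for MAF and -0.87 for TBX21. Over all 8 lines it gave -0.59 for IRF4, -0.56 for PRDM1, -0.36 for MAF, -0.50 for CEBPB and -0.39 for TBX21. With quantile normalization 2 factors were called between treated types, and MAF was -0.024 between treated T-cell and untreated ALCL lines. With medians centred 0 were called for treatment of T-cell lines, and over 8 lines IRF4 was -0.039 and PRDM1 -0.0092. Without the lowest 40% of genes, MAF among them, 2 were called between treated types. For treatment of T-cell lines 2 were called with 1 cell type alone and 2 with an intensity trend, and 0 without the replicate block, where PRDM1 had an adjusted p of 0.0591. The paired design therefore bears on that call, and the fit without the replicate block changed no other call of a single factor. In lines with the 28S rise 0 were called for treatment of T-cell lines, and CEBPB was 0.44 there. In lines without it, where Karpas 299 was the only ALCL line, CEBPB was -0.87 in T-cell lines. There the interaction was -0.28 for MAF and 0.072 for TBX21, and TBX21 was -0.040 in T-cell lines. Over all of these lines CEBPB was -0.24 and TBX21 -0.0044. The number called over 8 lines was 0 in both 28S splits, with the mean of probe sets, quantile normalization, medians centred, spikes and without the lowest 40% of genes. Single probe sets changed sign too. IRF4 216987_at gave 0.018 between treated T-cell and untreated ALCL lines, 0.030 for the interaction and 0.087 in ALCL lines. Over 8 lines IRF4 216986_s_at gave -0.27 and the mean of IRF4 probe sets -0.048. MAF 209347_s_at gave -0.027 for treated against untreated T-cell lines, -0.062 for ALCL lines, -0.034 for the interaction, -0.11 between treated T-cell and untreated ALCL lines and -0.045 over 8 lines.

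Leaving out 1 line at a time, the factors called numbered 1 to 2 between untreated types, 0 to 2 for treated T-cell lines, 0 to 1 each for the interaction and treatment of ALCL lines, 1 to 2 between treated types and 1 to 2 between treated T-cell and untreated ALCL lines. Signs changed for CEBPB in T-cell lines (-0.49 to 0.042) and over 8 lines (-0.086 to 0.27), for IRF4 over 8 lines (-0.065 to 0.25) and for PRDM1 over 8 lines (-0.022 to 0.18) and between treated types (-0.022 to 0.25). They changed for the MAF interaction (-0.062 to 0.080). For TBX21 the ranges were -0.19 to 0.33 between untreated types, -0.026 to 0.38 in ALCL lines, -0.33 to 0.070 for the interaction, -0.12 to 0.23 between treated types and -0.022 to 0.50 between treated T-cell and untreated ALCL lines. The cause of these changes was not tested. Values within the range of the bacterial controls, pooled over all arrays, were read on all arrays for the 3 MAF probe sets and IRF4 216987_at. The same held in all 4 untreated T-cell lines for IRF4 204562_at and 216986_s_at, in 3 of them for PRDM1 and in 2 for TBX21.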
